A study of Mus musculus with 11 samples.

Results

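A small set of promoters was more open in luminal than in basal cells of the pubertal mouse mammary gland, both in the growing tips called terminal end buds (TEBs) and in the ducts behind them. Accessibility was measured by ATAC-seq, in which a transposase cuts open chromatin, and read as counts in 153396 merged peaks. Promoter peaks are here the 16630 that reached to 500 bp or less of where transcription of a protein-coding gene starts (its TSS). They were selected on CPM, the count scaled by the library's total in peaks. A promoter peak was taken as luminal-biased when its mean CPM in luminal duct cells was at least 2 times that in basal duct cells, its mean in luminal TEB cells at least 2 times that in basal TEB cells, and both luminal means 3 CPM or more. The rule gave 496 peaks at 470 genes. The same rule with the lineages exchanged gave 1248 basal-biased promoter peaks at 1151 genes. Since these levels chose the peaks, luminal over basal differences at them are given as descriptions, without a test.

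The cells came from female C57BL/6 mice with an E-cadherin-GFP reporter, at 5 weeks of age. They were sorted as lineage-negative, CD29+ CD24+ cells and split by GFP into high (luminal) and low (basal), after TEBs and ducts had been dissected apart. All 4 populations therefore carry the reporter, and E-cadherin level itself defined the lineages. There were 3 libraries of luminal TEB cells, 3 of luminal duct cells, 3 of basal TEB cells and 2 of basal duct cells, described as biological replicates. The sources used here do not say whether these came from separate animals, so p-values measure only the spread between these libraries, which may be technical. Each is a bulk library, so a lower count in a population cannot be told apart from fewer cells of an open type within it.

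Depth differed between populations. The luminal TEB libraries held 2960093 to 3738324 counts in peaks, luminal duct 4650216 to 5561051, basal TEB 1821942 to 2489582, and basal duct 6816197 and 9986384. Promoter peaks took 32.7 to 34.6% of counts in luminal TEB, 35.6 to 37.4% in luminal duct, 31.1 to 35.7% in basal TEB, and 40.05 and 42.7% in basal duct libraries. Luminal markers summed over the strongest promoter peaks of 12 genes gave 354 to 418 CPM in luminal TEB and 370 to 438 CPM in luminal duct libraries, against 121 to 147 CPM in basal TEB and 202 to 210 CPM in basal duct libraries. The 9 basal markers gave 46.8 to 49.0 CPM in luminal TEB and 37.7 to 41.0 CPM in luminal duct libraries, against 160 to 216 CPM in basal TEB and 270 to 282 CPM in basal duct libraries. Of the 12 luminal markers 10 were higher in luminal cells in both structures, Kit among the exceptions, and all 9 basal markers were higher in basal cells. Among the immune markers, Ptprc, Cd3e, Adgre1 and Lyz2 had no promoter peak, while Csf1r and Coro1a had one, and their sum was 9.09 to 14.9 CPM in luminal TEB and 12.5 to 13.7 CPM in luminal duct libraries, against 6.04 to 10.04 CPM in basal TEB and 9.91 and 12.6 CPM in basal duct libraries. These 2 genes went opposite ways, Csf1r being higher in luminal and Coro1a in basal cells in both structures. Coro1a averaged 5.27 CPM in luminal TEB and 4.87 CPM in luminal duct cells, against 7.06 CPM in basal TEB and 10.02 CPM in basal duct cells. The 3 fibroblast markers with a promoter peak summed to 12.5 to 18.7 CPM in luminal TEB and 18.5 to 18.7 CPM in luminal duct libraries, against 43.4 to 52.9 CPM in basal TEB and 78.2 and 85.2 CPM in basal duct libraries. The 2 endothelial ones summed to 4.81 to 7.77 CPM in luminal TEB and 4.31 to 7.31 CPM in luminal duct libraries, against 18.1 to 24.2 CPM in basal TEB and 22.1 and 27.3 CPM in basal duct libraries. The part of such cells in the differences below was not tested.

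The mammary duct is a bilayer. Inner luminal cells are polarised, held together by tight junctions, and rich in simple keratins such as Krt8 and Krt19, and outer basal cells are contractile and make Krt5 and Krt14. Most mammalian promoters lie in CpG islands, stretches rich in CpG dinucleotides that are open in nearly every cell type. Promoters outside islands depend more on factors present only in certain cells, such as FOX, GATA, GRHL and ETS family factors and AP-1 in epithelia.

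Stretches of 7 luminal-biased promoter peaks are shown because they include the junction, keratin and transcription factor genes described below and the kinds of motif found in the set. Each lies inside the peak but outside every annotated exon, nearest to the peak's centre, read 5′ to 3′ in the direction of the gene, from the RefSeq sequence of GRCm38.p6 (the mm10 build). These 7 were chosen after their values had been seen. Capitals mark matches on either strand to 10 consensus motifs. These were TGANTCA for AP-1, TGTTTAC for FOX factors, AGATAA for the GATA family, AACCNGTT for GRHL, TGTGGT for RUNX, AGGAAG for ELF/EHF, CCGGAAG for other ETS factors, GGGCGG for SP/KLF, TATAAA for the TATA box and AGGTCA for the nuclear receptor half-site.
Foxa1 (chr12:57546581-57546780, minus strand): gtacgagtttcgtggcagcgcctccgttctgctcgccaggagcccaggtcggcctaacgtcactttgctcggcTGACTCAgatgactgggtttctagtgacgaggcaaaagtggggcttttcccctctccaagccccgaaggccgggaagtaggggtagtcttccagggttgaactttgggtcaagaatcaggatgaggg
Krt19 (chr11:100146121-100146320, minus strand): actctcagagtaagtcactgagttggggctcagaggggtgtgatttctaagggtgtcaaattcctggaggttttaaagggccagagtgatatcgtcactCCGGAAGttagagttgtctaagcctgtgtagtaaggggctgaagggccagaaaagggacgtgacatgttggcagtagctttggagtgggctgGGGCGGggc
Cldn4 (chr5:134946950-134947149, minus strand): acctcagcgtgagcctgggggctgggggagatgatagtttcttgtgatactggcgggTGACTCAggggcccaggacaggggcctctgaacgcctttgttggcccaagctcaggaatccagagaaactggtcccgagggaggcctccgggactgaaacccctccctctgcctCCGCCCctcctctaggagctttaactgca
Mal2 (chr15:54571025-54571191, plus strand): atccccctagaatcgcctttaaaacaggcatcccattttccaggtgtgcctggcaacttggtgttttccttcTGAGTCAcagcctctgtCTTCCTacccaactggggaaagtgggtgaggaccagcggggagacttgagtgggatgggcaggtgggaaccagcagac
Plet1 (chr9:50494325-50494524, plus strand): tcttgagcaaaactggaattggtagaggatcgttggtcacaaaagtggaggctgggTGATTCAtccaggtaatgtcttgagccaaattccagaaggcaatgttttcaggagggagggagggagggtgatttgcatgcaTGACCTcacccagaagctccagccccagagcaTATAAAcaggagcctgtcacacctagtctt
Prss22 (chr17:23998287-23998486, minus strand): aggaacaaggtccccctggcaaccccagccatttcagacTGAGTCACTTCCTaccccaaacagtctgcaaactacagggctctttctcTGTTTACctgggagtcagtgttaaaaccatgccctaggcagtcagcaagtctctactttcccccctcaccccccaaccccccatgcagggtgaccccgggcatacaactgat
Tspan17 (chr13:54789177-54789376, plus strand): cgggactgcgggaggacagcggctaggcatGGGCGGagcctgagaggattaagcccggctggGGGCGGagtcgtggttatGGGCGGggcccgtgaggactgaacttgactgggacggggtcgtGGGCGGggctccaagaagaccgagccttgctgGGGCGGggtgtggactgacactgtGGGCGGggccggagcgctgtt
The stretches from Cldn4, Foxa1, Mal2, Plet1 and Prss22 each held an AP-1 match. Prss22, a serine protease gene, also had a FOX match. The Tspan17 stretch held 6 SP/KLF matches and none of the other motifs. A match is a description of the letters and does not show that a factor bound there.

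Luminal-biased promoter peaks were CpG-poor. Their median ratio of observed to expected CpG was 0.282 (quartiles 0.173 and 0.437), against 0.539 in basal-biased and 0.690 in all promoter peaks, and their median GC content was 52.0%, against 59.4% and 59.96%. Only 62 of 496 (12.5%) had the CpG density of an island (GC of 50% or more and a ratio of 0.6 or more), against 40.6% of basal-biased and 63.8% of all promoter peaks. They were also narrower, with a median width of 531.5 bp against 836.5 bp and 990 bp. A TSS lay inside 338 of them (68.1%), against 79.2% and 84.2%. The peaks overlapped an exon of a protein-coding gene in 373 cases, lay within introns in 76 and between genes in 47. Most bases were masked repeats in 5 (1.01%), against 0.457% of all promoter peaks. Among these was Smim15, at 75.2%.

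Motif content differed as well. In the central 300 bases, an AP-1 match was found in 118 luminal-biased peaks (23.8%), against 7.77% of basal-biased and 6.45% of all promoter peaks. FOX matches were in 9.88%, against 1.36% and 2.19%. GATA matches were in 12.7%, against 5.53% and 4.28%, and GRHL matches in 4.03%, against 1.12% and 1.73%. The nuclear receptor half-site was in 21.0%, against 10.4% and 11.3%, whereas the SP/KLF GC box was in 25%, against 47.4% and 59.2%. RUNX matches were in 21.2%, against 13.9% and 11.4%, ELF/EHF matches in 42.7%, against 31.2% and 29.7%, TATA box matches in 8.87%, against 5.77% and 4.19%, and other ETS matches in 2.82%, against 3.53% and 11.3%. The full oestrogen response element was in no luminal-biased peak and in 3 of all promoter peaks. CpG content moves with these letters, so the shares were also taken among peaks without island density. There AP-1 was in 27% of the 434 luminal-biased peaks, against 11.6% of other promoter peaks, FOX in 11.3%, against 3.08%, GATA in 13.8%, against 7.51%, and ELF/EHF in 45.4%, against 36.6%. GRHL was in 4.61%, against 2.67%, RUNX in 22.1%, against 16.6%, the nuclear receptor half-site in 22.8%, against 16.4%, and TATA in 9.22%, against 6.81%. SP/KLF was in 21%, against 36.6%, and other ETS in 2.76%, against 6.74%. Most of these differences were smaller than those from all promoter peaks.

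**Figure D1:**
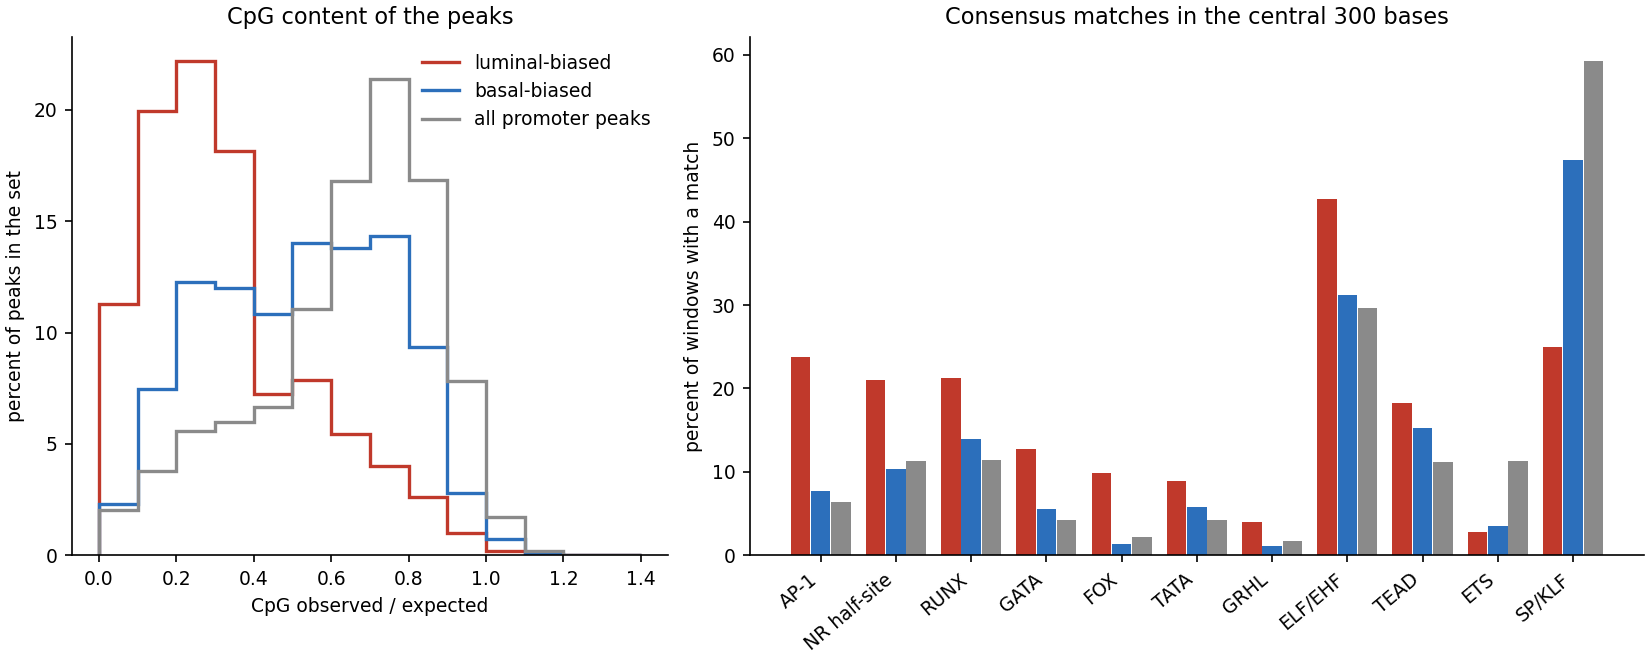
Left, CpG observed over expected in luminal-biased (red), basal-biased (blue) and all promoter peaks (grey), as percent of the peaks of each set. Right, percent of peaks with at least 1 match to each consensus in the central 300 bases. The red curve peaks between 0.2 and 0.3, and AP-1 (23.8% against 6.45%) and SP/KLF (25% against 59.2%) differ most from all promoter peaks.

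The peaks varied widely in how closed they were in basal cells. Median levels were 10.4 CPM in luminal TEB, 10.8 CPM in luminal duct, 2.67 CPM in basal TEB and 2.08 CPM in basal duct cells. In both structures, 170 peaks were 4-fold or more and 43 were 8-fold or more higher in luminal cells. At the limits of the rule, the folds were 2.003 (Prrg4), 2.004 (Ccdc68) and 2.014 (Slc9b2) just inside in ducts, and 1.997 (Cdo1) and 1.992 (Slc25a23, a second peak of that gene) just outside. In TEBs they were 2.007 (Mcidas), 2.011 (Il1r1) and 2.027 (Synb) inside, and 1.999 (Bicdl2), 1.998 (Pde1c) and 1.998 (Zfp934) outside.

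**Figure D2:**
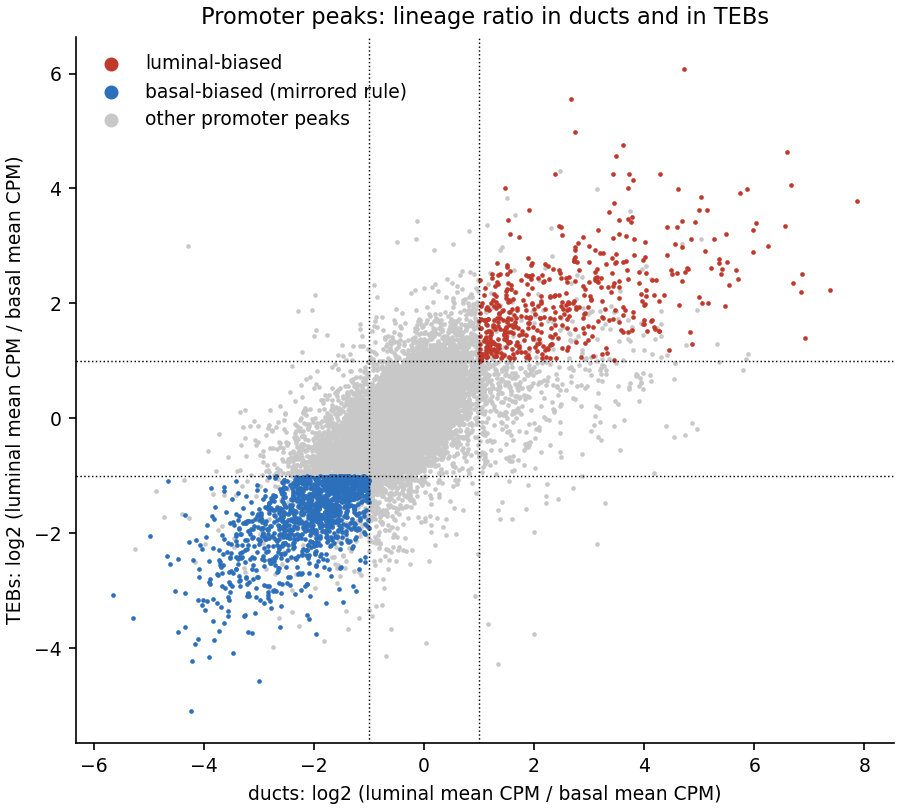
Each point is a promoter peak, with its log2 ratio of luminal over basal mean CPM in ducts (x) and in TEBs (y), and dotted lines at 2-fold. Luminal-biased peaks (red) fill the upper right by the rule that chose them, and peaks with a group mean of 0, 3 luminal-biased ones among them, are not drawn.

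The most one-sided peaks were modest in height and almost empty in basal cells. The largest bias was at Slc25a21, a mitochondrial carrier gene, whose peak at chr12:57159041-57159420 had 8.62, 13.1 and 6.42 CPM in luminal TEB and 7.79, 10.97 and 9.25 CPM in luminal duct libraries. It had no count in the 3 basal TEB libraries and 1 count in the 2 basal duct libraries together. Against 3 counts over the basal TEB libraries this made it at least 19.9-fold higher in luminal TEB cells. A neighbouring peak of the same gene had 3 basal TEB and 9 basal duct counts. Als2cr12 had no basal TEB count either, and was at least 16.1-fold higher in luminal TEB cells. Next came Thsd4, Rptn, Toporsl, Ubd, Clta, Psd3, BC030870, Gm16485 and Slc10a5, whose basal TEB libraries held 1 to 10 counts in sum. Rptn encodes repetin, a protein of the epidermal differentiation complex, and had 15.5, 17.4 and 14.2 CPM in luminal TEB and 16.2, 15.6 and 18.5 CPM in luminal duct libraries, against 1.10, 0.803 and 0 CPM in basal TEB and 0.2003 and 0.147 CPM in basal duct libraries. The pooled luminal duct over basal duct ratio at Rptn was 93.5, with a 95% interval of 31.6 to 457 that covers counting error only.

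Per kilobase of peak, the most open luminal-biased promoters were those of Tmem125 (78.6 CPM per kb averaged over both luminal means), Slc25a23 (75.1), Foxa1 (67.7), Svip (66.7), Mia2 (65.9), Gca (63.6), Rdh14 (63.5) and Arhgap40 (61.2). Foxa1, the FOX pioneer factor of hormone-sensing luminal cells, had 2 luminal-biased peaks. The upstream one, at chr12:57546365-57547182, had 48.0, 64.7 and 55.7 CPM in luminal TEB and 45.5, 63.3 and 54.8 CPM in luminal duct libraries, against 4.94, 6.03 and 5.88 CPM in basal TEB and 11.02 and 8.51 CPM in basal duct libraries. It averaged 56.2 ± 8.39 CPM in luminal TEB and 5.62 ± 0.589 CPM in basal TEB libraries (SD, n = 3 each), and was 5.59-fold higher in luminal cells in ducts. Ehf, an ETS factor of epithelia, had 3 luminal-biased peaks. The strongest, at chr2:103303155-103303510, had 17.8, 17.7 and 15.5 CPM in luminal TEB and 14.6, 17.1 and 10.8 CPM in luminal duct libraries, against 2.74, 3.21 and 0.980 CPM in basal TEB and 1.602 and 1.47 CPM in basal duct libraries. Of 36 epithelial and luminal transcription factor genes with a promoter peak, Foxa1, Ehf and Spdef had a luminal-biased one and 4 had a basal-biased one.

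Over all 14886 genes with a promoter peak, 3.16% had a luminal-biased and 7.73% a basal-biased one, and list counts are given beside this with no test. Tight junction genes had a luminal-biased promoter peak in 5 of 20 cases (Cldn3, Cldn4, Cldn7, Cldn8 and Marveld3) and a basal-biased one in none, and the median log2 difference of their strongest promoter peaks was 1.08 in TEBs and 0.37 in ducts, against 0.09 and -0.30 over all genes. Cldn3, a sealing claudin, had 74.98, 73.3 and 62.2 CPM in luminal TEB and 83.1, 80.7 and 70.5 CPM in luminal duct libraries, against 16.5, 14.5 and 25.5 CPM in basal TEB and 24.5 and 26.7 CPM in basal duct libraries. The basal levels were far from 0. Cldn8 was 5.53-fold higher in TEBs and 6.20-fold in ducts. In the polarity list 1 of 19 genes was luminal-biased, the apical determinant Crb3, at 2.83-fold in TEBs and 2.88-fold in ducts, and none was basal-biased. In the adherens junction and desmosome list 3 of 16 were luminal-biased (Dsc2, Pkp2 and Nectin4) and none basal-biased. Dsc2, a desmosomal cadherin, and Pkp2, a plakophilin of the desmosome, were 4.44-fold and 4.75-fold higher in TEBs and 2.81-fold and 3.00-fold higher in ducts. Of the vesicle traffic genes, 5 of 23 (Rab17, Rasef, Myo5c, Mal2 and Svip) were luminal-biased and none basal-biased. Rasef, which encodes a RAB-family GTPase with EF hands, had 45.4, 51.9 and 39.9 CPM in luminal TEB and 60.7, 65.8 and 65.6 CPM in luminal duct libraries, against 2.74, 2.01 and 7.35 CPM in basal TEB and 3.81 and 5.57 CPM in basal duct libraries.

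Keratin genes fell on both sides. Of 11 keratin genes on the list, Krt8 and Krt19 had luminal-biased and Krt5, Krt14, Krt15, Krt17 and Krt23 basal-biased promoter peaks, and 4 had neither. Among the 4 was the simple keratin Krt18, at 26.9 CPM in luminal TEB and 29.6 CPM in luminal duct cells, against 7.26 CPM in basal TEB and 17.0 CPM in basal duct cells. Outside the list, and named after their values were seen, Krt4 and Krt6a of stratified epithelia were luminal-biased, at 10.9-fold and 10.2-fold in TEBs and 11.7-fold and 5.49-fold in ducts. Of 26 basal identity and contractile genes, 16 had a basal-biased and none a luminal-biased peak. No luminal-biased peak was found at the 28 cell cycle, 28 housekeeping, 26 lipid and secretory, 19 TGF-beta and BMP or 27 Wnt and Notch genes measured. Basal-biased were 1 cell cycle, 2 lipid and secretory and 4 Wnt and Notch genes, and none of the other 2 lists. At the 3.16% over all genes, lists of this size would hold few or none, so nothing is read from these absences. In the luminal progenitor and milk list 3 of 18 were luminal-biased (Plet1, Lif and Folr1) and 1 basal-biased, and in the innate immunity list 4 of 24 (Nod2, Il1rn, Il18 and Csf1r) and 1. For solute transport the counts were 2 of 29 (the iodide carrier Slc5a5 and the potassium channel Kcnn4) and 1. In the hormone response list 2 of 16 were luminal-biased (Foxa1 and Dnajc12) and 3 basal-biased. Among receptor kinases the counts were 1 of 17 (Met) and 4, and in RNA binding 1 of 6 (Rbm47) and 2. Basal-biased genes were also the more numerous over all genes (7.73% against 3.16%). Median log2 differences in TEBs and ducts were 0.60 and 0.02 for hormone response, -0.02 and -0.77 for the kinases and 0.26 and -0.29 for RNA binding. Over all genes they were 0.09 and -0.30. Csf1r, a receptor of macrophages, had 7.47, 5.88 and 7.43 CPM in luminal TEB and 8.82, 8.09 and 8.17 CPM in luminal duct libraries, against 0.549, 1.21 and 0.980 CPM in basal TEB and 1.602 and 0.880 CPM in basal duct libraries. The pan-leukocyte gene Ptprc, whose product CD45 was among the lineage antigens listed for the sort, had no promoter peak, and the part of immune cells in this level was not tested. Of the differentiated keratinocyte list, Sprr1a and Sbsn were luminal-biased (2 of 4). The keratinocyte marker Krt10 was higher in basal cells, at 12.1 CPM in TEBs and 18.6 CPM in ducts. Its luminal levels were 9.41 and 9.03 CPM. None of the 2 endothelial, 3 fibroblast and 1 adipocyte genes with a promoter peak was luminal-biased. Of these, 2 endothelial and 2 fibroblast genes were basal-biased. Lists this small would seldom hold a luminal-biased gene at the 3.16% over all genes.

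**Figure D3:**
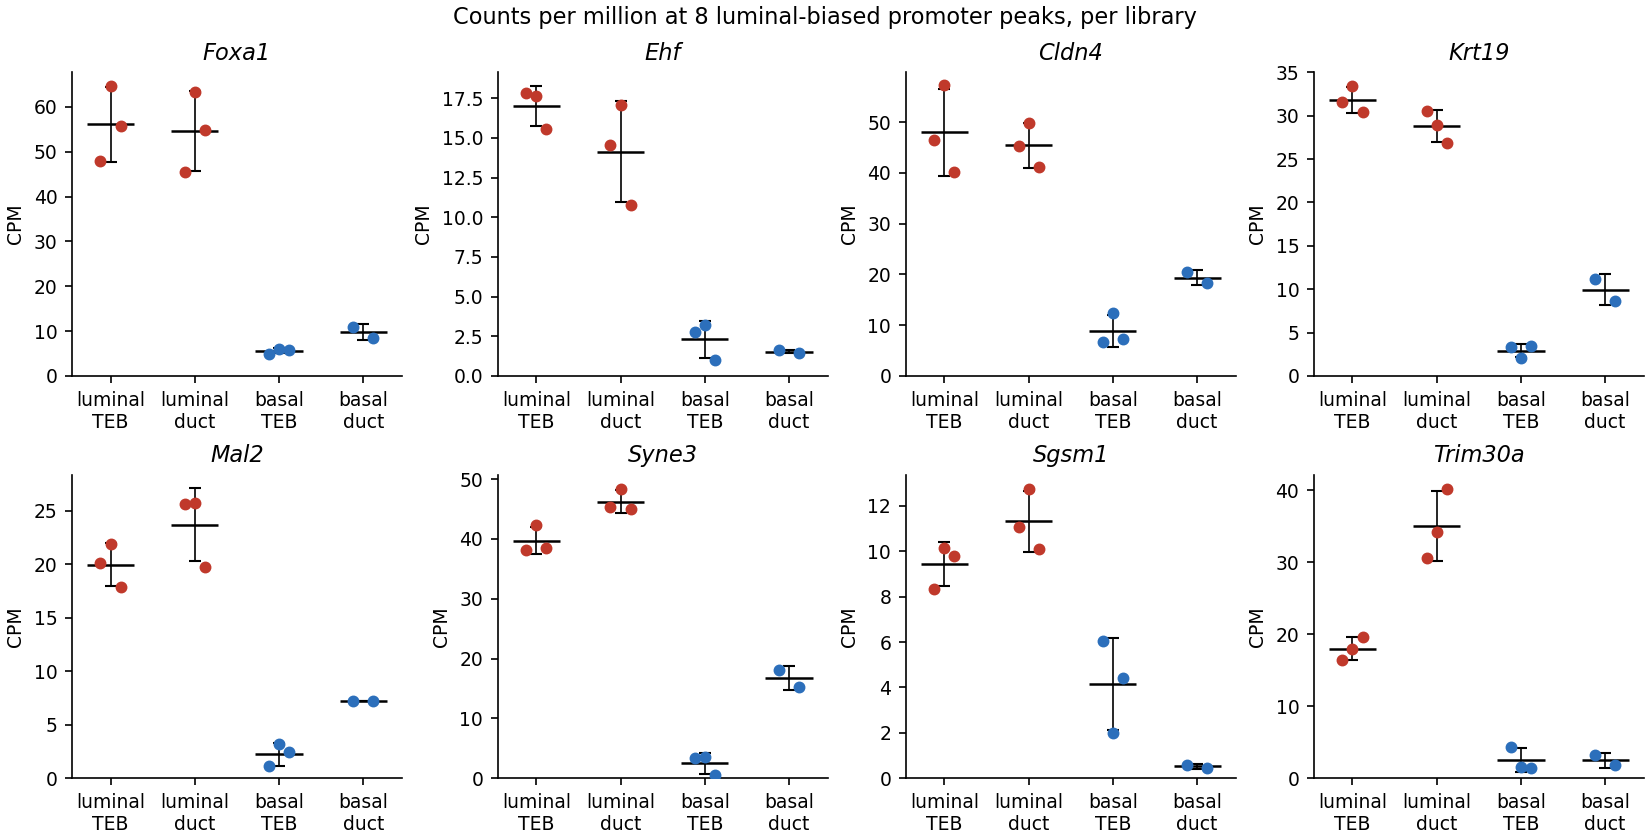
CPM in each library (points) with the group mean and SD (bars) at the luminal-biased promoter peak of 8 genes, luminal libraries in red and basal libraries in blue (n = 3, 3, 3 and 2). For Foxa1 and Ehf the peak with the most CPM per kb is drawn, and basal TEB points lie below basal duct points at Cldn4, Krt19, Mal2 and Syne3 but above them at Sgsm1.

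Many of these peaks were not the strongest promoter peak of their gene, ranked by CPM averaged over the luminal and basal group means. Basal levels had to be below luminal ones for a peak to enter the set. The ranking therefore does not show which peak was the stronger in luminal cells. Of the 496, 259 were the gene's only promoter peak, 58 the strongest of several, and 179 (at 166 genes) weaker than another promoter peak. In 156 of the 179 the strongest peak was biased to neither lineage, with a median log2 ratio of luminal over basal of 0.42 in TEBs and -0.04 in ducts. Met, the hepatocyte growth factor receptor gene, is an example. Its luminal-biased peak was 9.29-fold higher in TEBs and 45.03-fold higher in ducts on 7 basal TEB and 3 basal duct counts, while its strongest peak had log2 ratios of 0.82 and -0.24. At Krt8 the biased peak had 47.7, 53.5 and 52.0 CPM in luminal TEB and 60.7, 51.2 and 61.5 CPM in luminal duct libraries, against 13.2, 17.3 and 11.8 CPM in basal TEB and 21.6 and 21.4 CPM in basal duct libraries. It lay 492 bp from a TSS, and the strongest Krt8 promoter peak had log2 ratios of 0.60 in TEBs and 0.17 in ducts. That strongest peak averaged 47.1 CPM in luminal TEB and 54.1 CPM in luminal duct cells. Its basal means were 31.0 CPM in TEB and 47.9 CPM in duct cells, so at Krt8 the ranking came from the basal levels. The weaker peaks were narrower (median 364 bp, against 651 bp for sole peaks) and 10 of 179 had island density.

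Peaks outside promoters gave a measurement that the rule did not use. A total of 3758 peaks lay over 500 bp and up to 100 kb from the nearest TSS, with that TSS belonging to a gene with a luminal-biased promoter. In ducts, 1971 of them (52.4%) were called higher in luminal cells by edgeR's exact test over all peaks at FDR 0.05 and 814 (21.7%) lower, against 39.3% and 30.5% of all 105772 such peaks. In TEBs, 1285 (34.2%) were higher and 453 (12.1%) lower, against 22.4% and 16.5%. The share called higher was 47.2% at 0.5 to 2.5 kb in TEBs, 38.2% at 2.5 to 10 kb and 30.9% at 10 to 100 kb, where all peaks gave 20.3%, 24.2% and 22.1%. At least 1 flanking peak was higher in luminal cells in both structures at 321 of 470 genes (68.3%), against 48.1% of all genes with a promoter peak, and at least 1 was lower in both at 138 (29.4%), against 33.7%. Peaks near 1 gene share its neighbourhood, so these shares are descriptions and their difference was not tested.

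**Figure D4:**
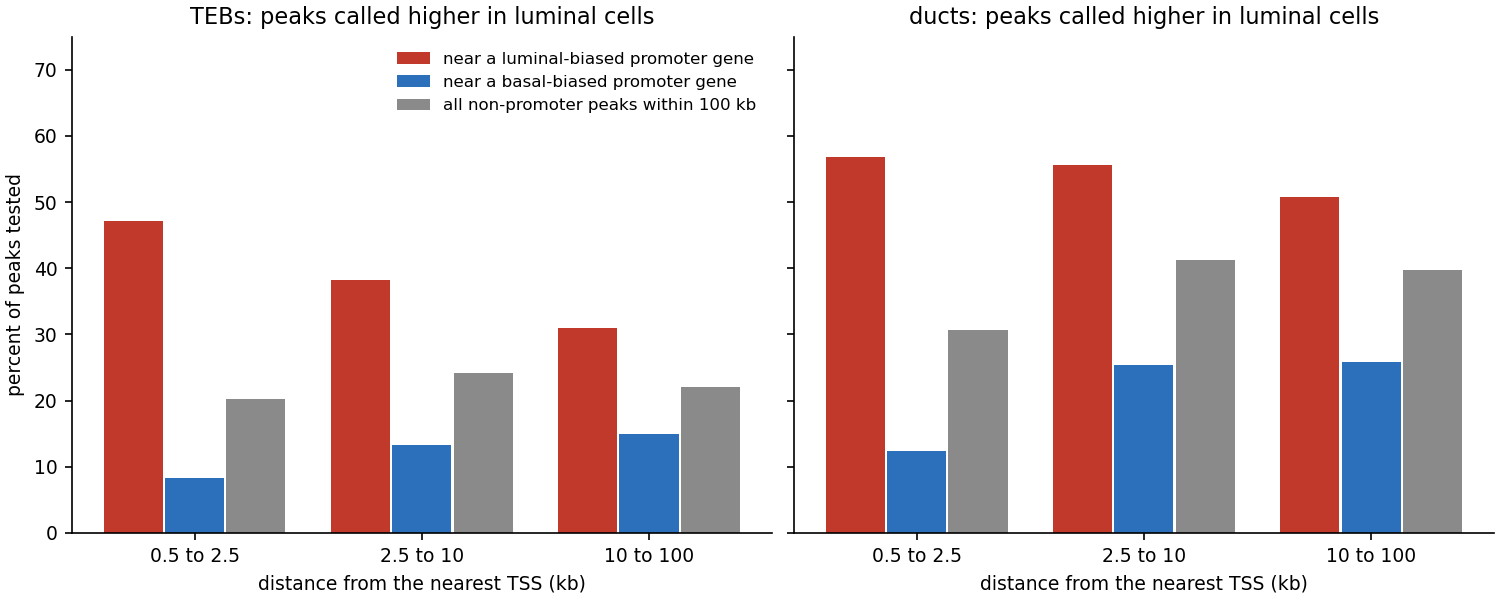
Percent of non-promoter peaks called higher in luminal than basal cells (edgeR exact test, FDR 0.05) by distance from the nearest TSS, for TEBs (left) and ducts (right), near genes with a luminal-biased promoter (red), near genes with a basal-biased promoter (blue) and for all such peaks (grey). The red bars are highest in every distance class, from 30.9% to 47.2% in TEBs and 50.7% to 56.8% in ducts.

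The smallest p-values were at an intronic peak of Basp1, 36.3 kb from its TSS at chr15:25376369-25377422. It had 83.0, 91.2 and 73.0 CPM in luminal TEB and 86.7, 91.5 and 77.0 CPM in luminal duct libraries, against 2.20, 2.81 and 1.47 CPM in basal TEB and 0.901 and 1.32 CPM in basal duct libraries. Its log2 fold change was 5.27 ± 0.25 (SE) in TEBs and 6.24 ± 0.20 (SE) in ducts (edgeR exact test, adjusted p = 7.3e-48 and 2.1e-122). Intronic peaks of Celf4 (log2 fold change 3.50 ± 0.18 in TEBs and 4.65 ± 0.26 in ducts) and Mcf2l (4.91 ± 0.68 and 6.27 ± 0.67) were among the 4 of smallest p in both structures. A peak 59.3 kb from Tnip3 was among them in ducts (6.46 ± 0.07). Its basal duct libraries had only 0.501 and 0.587 CPM, so its SE, a spread between libraries, can be far smaller than the counting error. The fourth in TEBs went the other way, a peak 10.7 kb from Diexf with 2.87, 0.802 and 2.70 CPM in luminal TEB against 32.9, 55.0 and 47.5 CPM in basal TEB libraries (log2 fold change -4.36 ± 0.46, adjusted p = 2.7e-30).

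TEB and duct luminal cells differed little at these promoters. The rule used the levels of these libraries but not this contrast. Of the 496, edgeR's exact test called 2 higher and 9 lower in luminal TEB than luminal duct cells (0.403% and 1.81%), where it called 0.114% and 1.26% of all promoter peaks and 0.311% and 0.455% of all peaks, and the median log2 fold change was -0.11, against -0.15 over all promoter peaks. At an unadjusted p under 0.05 there were 14 higher and 69 lower. Together these were 83 of the 496, against 2905 of 16630 promoter peaks and 17660 of 153394 peaks tested. The split depends on scaling, with 4 higher and 4 lower under TMM factors from promoter peaks, against 65 and 71 of all 16630 promoter peaks. DESeq2, which changes the test as well, gave 1 and 2, against 2 and 37 of all promoter peaks. Smim15 had 10.6, 13.1 and 11.5 CPM in luminal TEB libraries, against 4.51, 2.88 and 4.52 CPM in luminal duct libraries (log2 fold change 1.52 ± 0.21, SE, adjusted p = 0.00018 by edgeR), and Gm14137 had a change of 0.87 ± 0.12 (adjusted p = 0.0077). The Smim15 peak is a weaker one, since the gene's strongest peak had luminal over basal log2 ratios of -0.15 in TEBs and -0.36 in ducts.

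Among the 9 lower in luminal TEB cells were 2 interferon-induced TRIM genes on chromosome 7. Trim30a had 16.4, 17.9 and 19.6 CPM in luminal TEB libraries, against 30.6, 34.2 and 40.2 CPM in luminal duct libraries (log2 fold change -1.02 ± 0.13, SE, adjusted p = 4.1e-05 by edgeR). Trim30d had 10.6, 8.83 and 7.43 CPM, against 20.5, 16.5 and 17.0 CPM (-1.05 ± 0.17, adjusted p = 0.0023). It was also called lower in basal TEB than basal duct cells (-1.64, adjusted p = 0.043 by edgeR's exact test), a call lost with DESeq2. The 2 genes are close paralogs, and reads between near-identical copies may have been split. The others with groups that did not overlap and the largest changes were Ptpn22, a phosphatase of lymphoid signalling (-1.10 ± 0.24, adjusted p = 0.026), Fgg, the fibrinogen gamma chain (-1.08 ± 0.35, 0.0034), Sbk2 (-0.78 ± 0.17, 0.023) and the membrane mucin Muc16 (-0.70 ± 0.07, 0.033). Several calls were lost when a library was left out. Without luminal duct replicate 1 there were 1 higher and 5 lower, without luminal duct replicate 2 there were 1 and 2, without luminal TEB replicate 1 there were 1 and 2, and the lower calls numbered 5 without luminal duct replicate 3 and 2 without luminal TEB replicate 3. Without luminal TEB replicate 2 there were 2 higher and 13 lower. Smim15 and Trim30a passed in each of these fits. Gm14137 failed in 3, Fgg in 2, Trim30d in 1, Ptpn22 and Sbk2 in 4 each, and Muc16 failed in all 6. The change at Muc16 stayed at -0.64 to -0.74 in these fits.

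In basal cells, where these promoters were lower than in luminal cells, TEB and duct differed in both directions. EdgeR's exact test called 15 of 496 (3.02%) higher and 32 (6.45%) lower in basal TEB than basal duct cells. All promoter peaks gave 0.673% and 31.9%, and all peaks 8.22% and 9.73%. The median log2 fold change was 0.11, against -0.64 over all promoter peaks and -0.51 over the basal-biased ones. The sign of these changes depends on scaling, which shifts every peak alike. With TMM factors taken from promoter peaks the medians were 0.77 over luminal-biased and 0.02 over all promoter peaks. Of the 496, 44 were then higher and 5 lower, against 772 and 543 of all 16630 promoter peaks. DESeq2, which changes the test as well, gave 6 and 8, against 75 and 2271 of all promoter peaks. The basal levels had to be well below the luminal ones for a peak to enter the set, and the shares are read with that in mind. Promoter peaks held less of the counts in basal TEB than in basal duct libraries, as given above, and the part of this in the result was not tested.

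The lower calls included keratin, junction and surface protein genes. Syne3, which encodes a nesprin of the nuclear envelope, had 3.29, 3.62 and 0.490 CPM in basal TEB libraries, against 18.1 and 15.3 CPM in basal duct libraries, and 38.2, 42.3 and 38.5 CPM in luminal TEB and 45.3, 48.4 and 44.9 CPM in luminal duct libraries. Its log2 fold change in basal cells was -2.95 ± 0.72 (SE, adjusted p = 4.4e-09 by edgeR). Krt19 had 3.29, 2.01 and 3.43 CPM in basal TEB libraries, against 11.2 and 8.66 CPM in basal duct libraries (-2.03 ± 0.31, adjusted p = 0.00024). Lgals3 (galectin-3, -1.91 ± 0.53, adjusted p = 0.0023), Mal2 (a protein of transcytosis, -1.83 ± 0.39, 0.0029), Plet1 (a surface protein of luminal progenitors, -1.67 ± 0.33, 0.0026) and Tspan17 (a tetraspanin, -1.62 ± 0.29, 6.0e-05) followed. Cldn4 fell to 6.59, 12.5 and 7.35 CPM in basal TEB libraries, against 20.4 and 18.3 CPM in basal duct libraries (-1.33 ± 0.34, adjusted p = 0.0015), and the proximal Foxa1 peak to 7.68, 2.01 and 4.41 CPM, against 11.9 and 11.3 CPM (-1.59 ± 0.49, 0.0024). For the upstream Foxa1 peak the change was -1.02 ± 0.27 and missed the threshold (adjusted p = 0.053). With 2 basal duct libraries, removing one mattered. Without basal duct replicate 1 edgeR called 0 higher and 1 lower (10 and 22 at an unadjusted p under 0.05), and without basal duct replicate 3 it called 0 and 5 (11 and 31), with no other tool run on these subsets. These fits leave 1 basal duct library, which is assumed to vary like the basal TEB ones. The folds of some lost calls stayed similar, at -1.75 and -1.92 for Mal2 and -1.52 and -1.78 for Plet1. Others moved more, from -1.64 to -1.06 and -2.03 at Trim30d, and, among the higher calls, from 2.82 to 2.10 and 3.83 at Tmem71. Without basal TEB replicate 2 there were 30 higher, and without basal TEB replicate 3 there were 18 lower. Syne3 passed in each of these fits, Krt19 and Tspan17 failed without basal duct replicate 1, and Lgals3, Mal2, Plet1, Cldn4 and the proximal Foxa1 peak failed once either basal duct library was removed and under TMM factors from promoter peaks.

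The 15 higher calls had 10 to 87 basal TEB and 1 to 65 basal duct counts in sum. The most reads were at Ugt1a1, a glucuronosyltransferase gene named after its values were seen, with 14.3, 10.4 and 17.2 CPM in basal TEB libraries, against 3.50 and 4.401 CPM in basal duct libraries (log2 fold change 1.59 ± 0.18, SE, adjusted p = 0.0010 by edgeR). The largest changes were on few reads. Sgsm1 had 6.04, 2.01 and 4.41 CPM in basal TEB libraries, against 0.601 and 0.440 CPM in basal duct libraries, on 25 and 9 counts (log2 fold change 2.64 ± 0.42, SE, adjusted p = 0.0083 by edgeR). The pooled ratio was 7.35, with a 95% counting interval of 3.32 to 17.9. Gm48552 had 20 basal TEB and 4 basal duct counts (ratio 13.2, interval 4.43 to 53.2), and Bcl9 18 and 6 (7.94, 3.02 to 24.4). Tmem71 had 14 and 4 (9.26, 2.91 to 38.6), Cant1 11 and 1 (29.1, 4.23 to 1252) and Apof 10 and 2 (13.2, 2.82 to 124). None of these 6 passed once either basal duct library was removed. Of the 15, 6 had 10 or more basal duct counts.

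**Figure D5:**
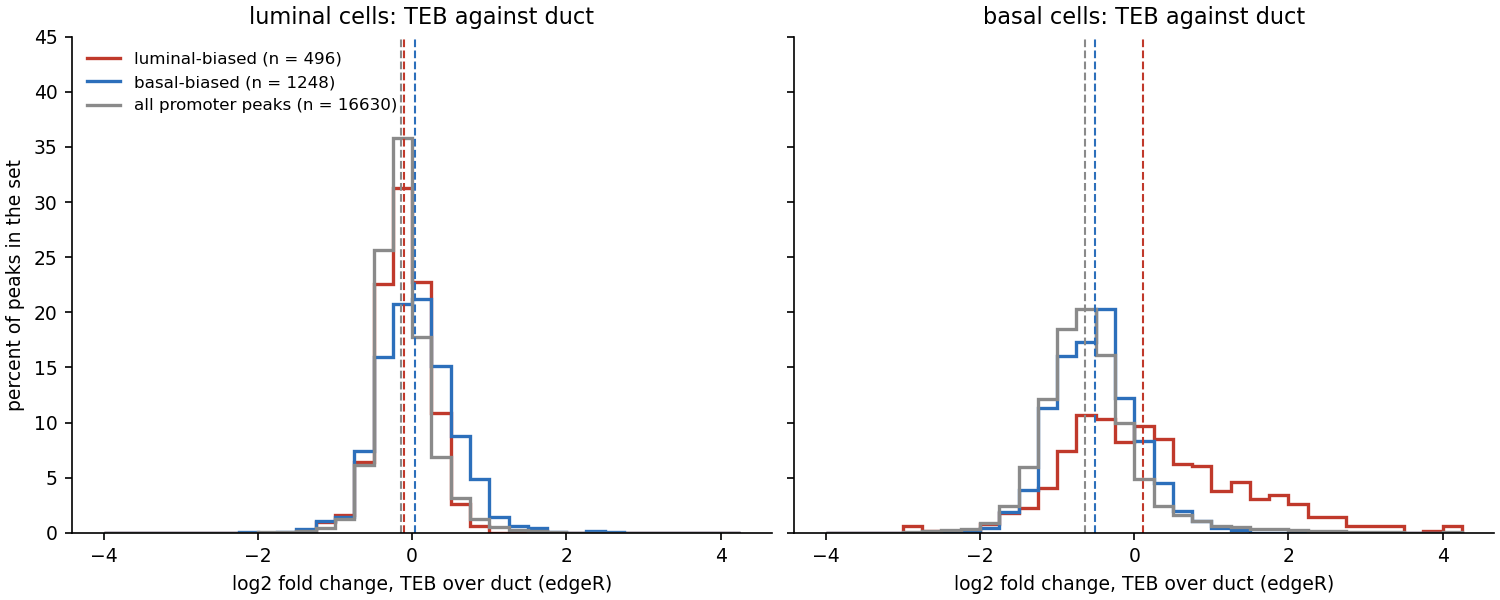
Distribution of edgeR log2 fold changes of TEB over duct in luminal cells (left) and basal cells (right), as percent of each set in steps of 0.25, with dashed lines at the medians and values beyond the axis drawn in the outer steps. In luminal cells the medians lie close together (-0.11, 0.04 and -0.15), whereas in basal cells that of luminal-biased peaks is 0.11 against -0.51 for basal-biased and -0.64 for all promoter peaks.

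Grouping by openness in basal duct cells is shaped by construction, since that level is the denominator of the change, and the counts are given as a description. Of the 123 luminal-biased peaks with a basal duct mean of 5 CPM or more, 30 were called lower and none higher in basal TEB cells (edgeR exact test), with a median log2 fold change of -0.60. Of the 373 under 5 CPM, 2 were lower and 15 higher, with a median of 0.39. The 62 peaks with island density had a median of -0.55, with 11 lower and none higher, and the 434 others a median of 0.24, with 21 lower and 15 higher.

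The change between TEB and duct was compared between the lineages by edgeR's quasi-likelihood test of the interaction over 11 libraries, with a positive value where the TEB over duct change was greater in luminal cells. Of the 496, 15 were higher (3.02%) and 45 lower (9.07%), against 13.9% and 1.08% of all promoter peaks and 6.47% and 7.54% of all peaks. The interaction is the difference of the 2 luminal over basal ratios on which the peaks were selected, so nothing is read from these shares. The peaks named below were described for a TEB against duct change, which the interaction contains, so their p-values are shaped by that choice too. With TMM factors from promoter peaks there were 6 higher and 77 lower, against 680 and 887 of the 16007 promoter peaks tested. Krt19 had an interaction of 2.05 (adjusted p = 0.00048), since its luminal levels were 31.6, 33.4 and 30.4 CPM in TEB and 30.6, 29.0 and 26.9 CPM in duct libraries while the basal ones fell. Cldn4 had one of 1.28 (adjusted p = 0.0059), and Syne3 one of 2.60 (2.6e-05). Muc16 was among the 45 at -2.65 (0.0042), with 2.20, 2.01 and 3.92 CPM in basal TEB against 0.2003 and 1.17 CPM in basal duct libraries. Without basal duct replicate 1 the counts were 6 higher and 8 lower. Without basal duct replicate 3 there were 27 lower, without luminal duct replicate 3 there were 8 higher, and without luminal TEB replicate 2 there were 6 higher.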

How the data were processed

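ATAC-seq was measured in 11 libraries of sorted mouse mammary epithelial cells, grouped by their labels, and a basal duct sample discarded for low cell number is not analysed here. Per the labels and the study's methods, the authors aligned trimmed reads to mm10 (Bowtie2, 2.3.4.3 in the labels) and discarded duplicates. They pooled the replicates of a population for peak calling by MACS2, then merged the populations' peaks outside blacklisted regions. The deposited values are raw read counts per merged peak, made in SeqMonk, and 286 peaks on scaffolds had none. Pooled calling means a peak need not be present in each replicate.

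Promoter peaks had an edge within 500 bp of any of 41421 TSS positions of transcripts typed protein_coding in the basic set of GENCODE vM21 (GRCm38). CPM used column totals. Pairs of groups were compared over all peaks by edgeR 4.0.16 in R 4.3.3 with its exact test (TMM, dispersions within the pair, Benjamini-Hochberg FDR 0.05), and the interaction with its quasi-likelihood test after filterByExpr. SEs were computed between libraries from log2 CPM with a prior count added, apart from the edgeR fold printed beside them. They can understate the error of that fold where counts are few. DESeq2 1.42.0, other scalings, filters and leaving out each library were alternatives. The tests were also run on simulated counts. Intervals are exact (Clopper-Pearson, 95%), and a count of 0 was set against 3 counts over the group. All intervals cover counting error only.

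The members, gene lists, motifs and tests were chosen with earlier results of these data known. Named were the 12 peaks with the largest smaller ratio of both, the 8 most open per kb, the members of the lists, the 6 largest changes per direction past each TEB against duct test with groups that did not overlap, the 3 peaks on each side of each limit and the 4 flanking peaks of smallest p. Others were named after their values were seen (Cldn4 and both Foxa1 peaks under the TEB against duct tests, Krt4, Krt6a, Ugt1a1 and Prss22). A marker gene, a peak beside a limit of the rule and a promoter stretch are not reported here. The labels do not say whether a replicate number marks shared animals.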

Additional observations from a re-analysis of the deposited data

Results flagged for a closer look

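At 15 of the luminal-biased promoter peaks described for a TEB against duct change, that change differed between luminal and basal cells by the edgeR quasi-likelihood test of the interaction (log2 scale, positive where the TEB over duct change was greater in luminal cells). It was positive at Syne3 (2.60), Krt19 (2.05), Lgals3 (1.83), Mal2 (1.45), Plet1 (1.32), Cldn4 (1.28) and Tspan17 (1.16). It was negative at Cant1 (-4.54), Apof (-3.17), Gm48552 (-3.16), Sgsm1 (-3.004), Bcl9 (-2.84), Tmem71 (-2.83), Muc16 (-2.65) and Sbk2 (-2.12). Without basal duct replicate 1 the call was lost at Sbk2, Muc16, Gm48552, Apof, Tmem71, Mal2, Plet1 and Tspan17. The call at Bcl9 was lost without basal duct replicate 3. That at Apof was also lost with DESeq2 and in 5 other fits without a library. Those at Mal2 and Plet1 were also lost with DESeq2, with TMM factors from promoter peaks, and in 4 and 5 other fits without a library. The interaction is the difference of the 2 luminal over basal ratios that chose these peaks. It also contains the TEB against duct change for which they were described, so a difference between the lineages is partly built in.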

How the results depend on the processing

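With the TSS distance at 1000 bp the rule gave 767 peaks, with every transcript of a protein-coding gene 1094 (chosen after seeing the data), with a fold limit of 1.5 it gave 934 and of 3 it gave 262. Leaving out each library in turn gave 483 to 519. For luminal TEB against luminal duct, DESeq2 called 1 higher and 2 lower, TMM factors from promoter peaks 4 and 4, and filterByExpr 15 lower, and leaving out a library gave 1 to 2 higher and 2 to 13 lower. For basal TEB against basal duct, DESeq2 called 6 higher and 8 lower, TMM factors from promoter peaks 44 and 5, and filterByExpr 15 lower among 186 peaks tested, and leaving out a library gave 0 to 30 higher and 1 to 34 lower. Keeping peaks with 10 or more basal duct counts, chosen after seeing the data, left 6 higher. For the interaction, DESeq2 called 7 higher, and TMM factors from promoter peaks 6 higher and 77 lower, with 6 to 20 higher and 8 to 50 lower when a library was left out. Flanking peaks lower in luminal TEB cells numbered 283 by DESeq2, and leaving out a library gave 311 to 462 lower and 1038 to 1250 higher in TEBs and 681 to 788 lower and 1680 to 1918 higher in ducts. Over promoter peaks, deviations of libraries with the same replicate number correlated at -0.11 to 0.12, and of other pairs at -0.13 to 0.13, so the numbers were not taken to pair libraries. With the replicate block 19 peaks were lower in luminal TEB cells, and the other counts stayed within 1.5 times. None of 467 single-peak values reversed, 354 kept their side of the threshold, 111 lost their call and 2, at the upstream Foxa1 peak, gained one. The cause of these shifts was not tested.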
